A study of Capra hircus with 12 samples.

Results

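The miR-10, miR-99, miR-100 and miR-125 miRNAs of goat embryonic skin were described in 3 small RNA libraries, and 4 rows carried one of the 7 names searched. The names were miR-10a, miR-10b, miR-99a, miR-99b, miR-100, miR-125a and miR-125b, and rows were matched by the sheep (oar) miRNA name in the table, with any ending for the hairpin arm ignored. The table holds 649 rows, of which 151 have a sheep name and 498 have only an identifier. One row each was found for miR-10a, miR-10b, miR-99a and miR-125b, and no row was found by name for miR-99b, miR-100 and miR-125a. Skin of Inner Mongolia cashmere goats (Capra hircus) came from embryos at 3 stages, named by the embryonic day as E45, E55 and E65, and the skin of 3 embryos of a stage was mixed before RNA extraction. Each stage thus has 1 library and no replicate, so the values below describe these pools, and no test between stages was possible. Recovered from the deposited RPM values (reads scaled to a library total of 1000000), the depth was 2455589 reads for the E45 library, 4125618 reads for that of E55 and 2344826 reads for that of E65. The intervals given are 95% intervals that cover counting error only, and PCR reads are not independent molecules.

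A miRNA guides its protein complex to messenger RNAs mainly through its seed, which is bases 2 to 8 from its 5′ end, and lowers the output of those messages. The miR-10 genes lie inside the HOX clusters, whose transcription factors pattern the body axis, and miR-99 and miR-100 are close relatives of miR-10 in sequence. miR-99, miR-100 and miR-125 genes sit beside let-7 genes in mammals. miR-125 is the vertebrate relative of the worm timing miRNA lin-4, and in mouse skin miR-125b is known for holding back the differentiation of hair follicle stem cells. miR-99 and miR-100 are known for repressing mTOR, a kinase that drives cell growth.

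The sequences of the 4 rows, as deposited in DNA letters, show how the members differ at the end that pairs with targets. Capitals mark bases 2 to 8.
miR-10a: tACCCTGTagatccgaatttg
miR-10b: aCCCTGTAgaaccgaatttgtg
miR-99a: aACCCGTAgatccgatcttg
miR-125b: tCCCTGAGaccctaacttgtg
unnamed row chr15_7001: aACCCGTAgatccgaacttgt
The last row has no name in the table and is shown because it is the only unnamed row with the seed of a member, ACCCGTA, which it shares with miR-99a. It matched miR-99a at 19 of 20 overlapping bases, with the substitution T16A (counted from 1 at the 5′ end of miR-99a). Its sequence is the one known for the mature strand of miR-100, but the table does not name it and no reference sequence was used here to check it, so it was kept apart from the 4 members.

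miR-10a and miR-10b matched at 19 of 20 overlapping bases, with the substitution T12A counted along miR-10a. The deposited miR-10b begins 1 base later, so its first 7 bases, ACCCTGT, are bases 2 to 8 of miR-10a, and the pair was grouped by name and not by seed. miR-10a and miR-99a share the stretch GTAGATCCGA of 10 bases, which starts at base 7 of miR-10a and at base 6 of miR-99a. The miR-125b seed CCCTGAG, like those of miR-10a and miR-10b, was found in no other row (1 of 649 rows each, 0.154%).

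In the RefSeq gene table of the goat assembly ARS1.2, used here for names and neighbours only, MIR10A lies between HOXB5 and HOXB3 and MIR10B between HOXD8 and HOXD3. Only protein-coding and miRNA genes lying wholly before or after a miRNA gene were listed as neighbours. A gene that partly overlaps it would therefore be missing here. MIR125B, MIRLET7C and MIR99A follow each other on one chromosome, inside the same long non-coding RNA gene, LOC102176916. MIR99B lies next to MIRLET7E, and MIR100 lies between UBASH3B and SORL1. No coordinates are given, because the build used for the small RNA reads is not given in the sources used here.

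All 4 members were abundant in every library, and their order was the same at the 3 stages. miR-10b was the highest, followed by miR-125b, miR-99a and miR-10a. Ranks among the 649 rows ran from 20 for miR-10b at E45 and E65 to 84 for miR-10a at E55. The RPM values count whole reads and are not divided by length, the 4 sequences being 20 to 22 bases long. Neighbours in this order differed by more than counting error in each library, and the closest pair was miR-10b and miR-125b at E55, with a ratio of 1.07 (1.05 to 1.08). The spread between embryos is not known, so the order describes the reads of the 3 pools. How evenly different sequences were turned into reads was not measured, and the counting intervals do not cover it. In pooled skin, fewer cells of a type and less RNA per cell cannot be told apart.

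miR-10b, the most abundant member, is encoded among the HOXD genes. Its level was 10310 RPM at E45 (10184 to 10438), 6049 RPM at E55 (5974 to 6125) and 11283 RPM at E65 (11148 to 11420). The E55 library was the low one, and the deposited values of the E45 and E65 libraries were close to each other. In E55 against E45 the level was 0.587 times as high (0.577 to 0.597), a log2 ratio of RPM + 1 of -0.77. In E65 against E55 it was 1.87 times as high (1.83 to 1.90), a log2 ratio of 0.90. The ratio of E65 against E45 was 1.09 (1.08 to 1.11), a log2 ratio of 0.13, which became 0.51 with TMM scaling, 0.62 relative to the median row, 1.08 with median scaling and -0.0669 with the sheep-named rows as the total.

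miR-10a, encoded among the HOXB genes, had the same order of libraries. Its level was 2220 RPM at E45 (2162 to 2280), 1243 RPM at E55 (1209 to 1277) and 3057 RPM at E65 (2987 to 3129). Again the E55 library was lowest, and the E65 library stood further above that of E45 than it did for miR-10b. The log2 ratio was -0.84 in E55 against E45, 1.30 in E65 against E55 and 0.46 in E65 against E45. The last of these was 0.26 with the sheep-named rows as the total, 0.84 with TMM scaling, 0.96 relative to the median row and 1.42 with median scaling, which is past 2-fold. In E65 against E55 the level was 2.46 times as high (2.37 to 2.55), the highest ratio of the 4 members and the only one past 2-fold on the deposited values (with median scaling miR-10b passed it too). Of the 373 rows with a mean of at least 10 RPM, 96.5% had a lower ratio than miR-10a in that comparison and 93.0% a lower one than miR-10b. For both miR-10 members, the lower value in E55 against E45 and the higher value in E65 against E55 kept their direction under all 10 other settings tried. Of these, 2 leave the values of single rows as they are, and several others could hardly move them. In E55 against E45 miR-10a was -0.84 and -0.83 with the other pseudocounts. It was -0.85 with shared sequences counted once and -0.89 without the most abundant row in the total. The size of the E55 value was less stable, since with median scaling the log2 ratios of E55 against E45 were -0.22 for miR-10a and -0.15 for miR-10b, and with the sheep-named rows as the total they were -1.03 and -0.96.

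miR-125b, the lin-4 relative, went a different way after E55. Its level was 8571 RPM at E45 (8456 to 8688), 5678 RPM at E55 (5606 to 5752) and 5230 RPM at E65 (5138 to 5323). The E45 library was the high one, and the other two were close together. The log2 ratio was -0.59 in E55 against E45, -0.12 in E65 against E55 and -0.71 in E65 against E45. The E65 level was 0.610 times that at E45 (0.597 to 0.624). These 3 ratios were below 0 under every other setting except median scaling, where they were 0.0237, 0.22 and 0.24. The ratio of E65 against E55 was only -0.0219 with TMM scaling and -0.0290 relative to the median row, which is little change.

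miR-99a is encoded next to let-7c. Its level was 3918 RPM at E45 (3840 to 3997), 3576 RPM at E55 (3518 to 3634) and 4312 RPM at E65 (4228 to 4396). The deposited values lay within 1.21-fold of each other. The log2 ratio was -0.13 in E55 against E45, 0.27 in E65 against E55 and 0.14 in E65 against E45. The first of these was above 0 with TMM scaling (0.15), with median scaling (0.49) and relative to the median row (0.20), so no direction is given for it. The ratio of E65 against E45 was 0.51 with TMM, 0.63 relative to the median row and 1.09 with median scaling, and -0.0589 with the sheep-named rows as the total, so its size and sign depend on the scaling.

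**Figure D1:**
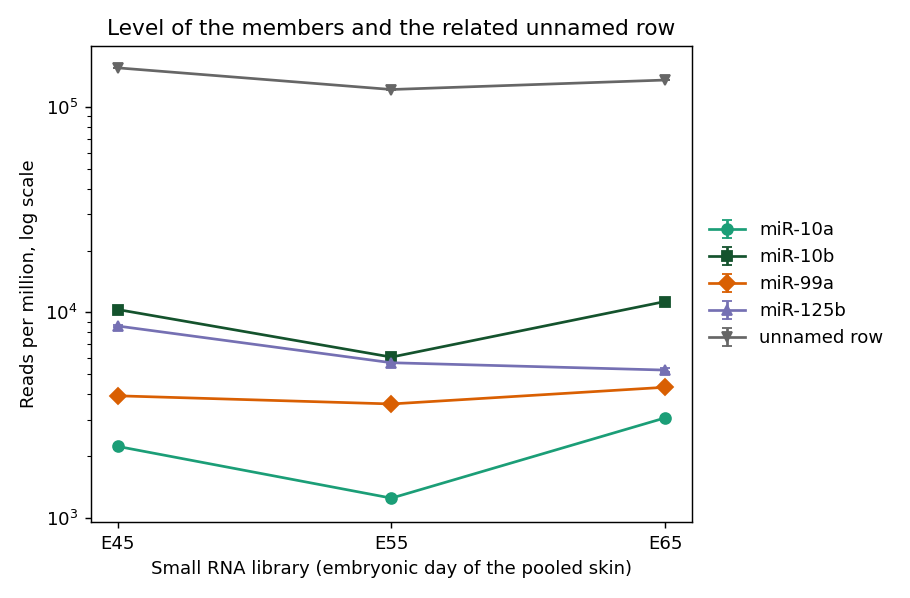
Level in RPM (log scale) of the 4 members and of the related unnamed row in the E45, E55 and E65 small RNA libraries, each 1 pool of 3 embryos, with 95% Poisson intervals that are mostly smaller than the points. miR-10a and miR-10b were lowest at E55 (1243 and 6049 RPM) and highest at E65 (3057 and 11283 RPM), although miR-10b was slightly lower at E65 than at E45 with only the sheep-named rows as the total.

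The unnamed row with the seed of miR-99a was the most abundant row of the whole table in each library. It had 155265 RPM at E45, 121797 RPM at E55 and 135432 RPM at E65, which is 15.5%, 12.2% and 13.5% of the reads. It stood 39.6 times above miR-99a at E45, 34.1 times at E55 and 31.4 times at E65. Whether some reads of the unnamed row, which differs from miR-99a by the substitution T16A, were counted as miR-99a was not tested. The next row by mean level, miR-143, had 67984, 83128 and 95670 RPM. Reads with the seed ACCCGTA therefore came almost wholly from a row that the name search does not reach. The log2 ratio of the unnamed row was -0.35 in E55 against E45, 0.15 in E65 against E55 and -0.20 in E65 against E45, and the first and last of these were above 0 with median scaling (0.27 and 0.76), the last also with TMM scaling (0.18) and relative to the median row (0.30).

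Summed over the 4 members, the level was 25020 RPM at E45, 16546 RPM at E55 and 23882 RPM at E65. This is 2.50% (2.48 to 2.52), 1.65% (1.64 to 1.67) and 2.39% (2.37 to 2.41) of the reads. With the unnamed row the sums were 18.0%, 13.8% and 15.9% of the reads. The 4 members were all lower in E55 against E45 on the deposited values, with a median log2 ratio of -0.68, but miR-99a was higher with 3 of the other scalings and miR-125b with median scaling. In that comparison 63.5% of all 649 rows and 67.8% of the 373 rows were lower, the median of the 373 rows was -0.34 and that of the 103 rows with a mean of at least 1000 RPM was -0.03. In E65 against E55, 3 members were higher and 1, miR-125b, was lower, with a median of 0.58 beside -0.09 for the 373 rows, of which 55.8% were lower, and with median scaling all 4 were higher. In E65 against E45 the counts were the same, with a median of 0.13 beside -0.49 for the 373 rows, of which 72.1% were lower, and here too all 4 were higher with median scaling, while miR-10b and miR-99a were lower with the sheep-named rows as the total.

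With 1 library a stage, a row was counted as different when its log2 ratio was at least 1 in either direction. In E55 against E45 none of the 4 members (0) passed this, where 4.47% of all rows were higher and 17.7% lower by that much. In E65 against E55 the 1 member past it was miR-10a, higher, where 6.32% of all rows were higher and 16.3% lower. In E65 against E45 no member (0) passed it, where 5.86% of all rows were higher and 26.8% lower. With median scaling 2 members were higher in E65 against E55 (12.9% of all rows) and 3 in E65 against E45 (28.5% of all rows), and with the sheep-named rows as the total miR-10a was past it, lower, in E55 against E45 (23.7% of all rows lower), so these counts depend on the scaling. At a lower threshold of 0.5 on the deposited values, miR-10a, miR-10b and miR-125b were lower in E55 against E45 (3 of 4, against 37.0% of all rows), miR-10a and miR-10b were higher in E65 against E55 (2 of 4, against 17.3%), and miR-125b was lower in E65 against E45 (1 of 4, against 46.7%). These counts also moved. The 3 lower members in E55 against E45 became 1, miR-10a, with TMM and relative to the median row (24.3% and 22.3% of all rows), and 0 with median scaling (15.3%). Both miR-10a and miR-10b were past it in E65 against E55 with each scaling, joined by miR-99a with median scaling (3 of 4, against 31.7%). In E65 against E45 the lower call of miR-125b was lost with TMM, relative to the median row and with median scaling, and miR-10a, miR-10b and miR-99a were higher instead (against 23.0%, 31.7% and 51.8%).

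**Figure D2:**
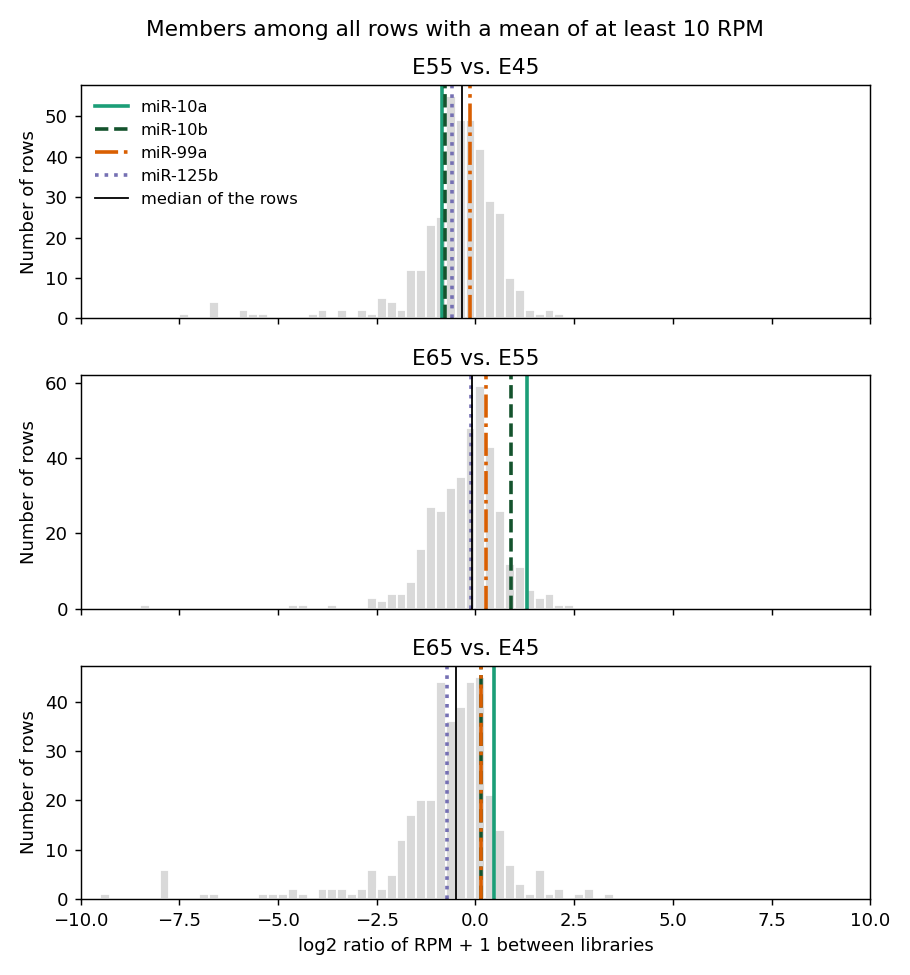
Number of rows (vertical axis) by log2 ratio of RPM + 1 between libraries (horizontal axis) for the 373 rows with a mean of at least 10 RPM, in 3 panels, with a coloured line for each member and a black line for the median row. In E65 against E55 miR-10a (1.30) and miR-10b (0.90) lie in the upper part of the rows, while miR-125b (-0.12, above 0 with median scaling) lies at the median.

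Because all rows of a library share its scaling, ratios between members within a library were compared as well, and these do not change with the total used. miR-10b stood to miR-99a at 2.63 (2.57 to 2.69) at E45, 1.69 (1.66 to 1.73) at E55 and 2.62 (2.56 to 2.68) at E65. The pair of outer stages had the same ratio within counting error, and the E55 library had a lower one. miR-125b stood to miR-99a at 2.19 (2.14 to 2.24), 1.59 (1.56 to 1.62) and 1.21 (1.18 to 1.25) in the same order, lower at each later stage. How far reads of the unnamed row entered the miR-99a count, and so the ratios with miR-99a, was not tested. miR-10b stood to miR-125b at 1.20 (1.18 to 1.23), 1.07 (1.05 to 1.08) and 2.16 (2.11 to 2.20). The E65 library thus held the largest excess of miR-10b over miR-125b. The miR-10a to miR-10b ratio was 0.215 (0.209 to 0.222) at E45, 0.205 (0.199 to 0.212) at E55 and 0.271 (0.264 to 0.278) at E65, so the intervals at E45 and E55 overlapped and the E65 value lay above both.

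The make-up of the member reads moved with these ratios. miR-10a and miR-10b together took 50.1% of the reads of the 4 rows at E45 (49.7 to 50.5), 44.1% at E55 (43.7 to 44.4) and 60.0% at E65 (59.6 to 60.5). miR-125b took 34.3%, 34.3% and 21.9%, and miR-99a took 15.7%, 21.6% and 18.1%. The shares of miR-125b at E45 and E55 did not differ beyond counting error.

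**Figure D3:**
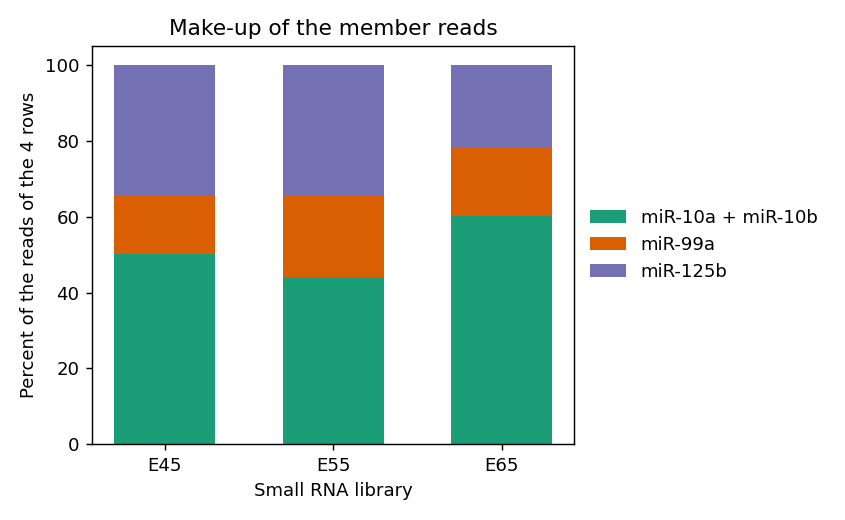
Percent of the reads of the 4 members (vertical axis, from 0) taken by miR-10a with miR-10b, by miR-99a and by miR-125b in each small RNA library. The miR-10 share was 50.1%, 44.1% and 60.0%, and the miR-125b share was 34.3%, 34.3% and 21.9% at E45, E55 and E65.

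The let-7 miRNAs are genome partners of miR-99, miR-100 and miR-125 genes in mammals, not of miR-10, and are known for rising as tissues mature. Of let-7a, let-7c and let-7e, which were searched as partners, let-7a and let-7c had a named row. In the goat gene table no let-7a gene was among the neighbours listed for MIR100, MIR99A, MIR99B or MIR125B. let-7a had 9276 RPM at E45, 12624 RPM at E55 and 15502 RPM at E65. let-7c had 3560, 2659 and 3311 RPM. miR-99a, which follows let-7c in the genome, stood to it at 1.10 (1.07 to 1.13), 1.34 (1.31 to 1.38) and 1.30 (1.26 to 1.34). It was lowest in the E45 library, and the intervals at E55 and E65 overlapped. miR-125b stood to let-7c at 2.41 (2.35 to 2.47), 2.14 (2.09 to 2.18) and 1.58 (1.54 to 1.63). Against let-7a it went from 0.924 (0.907 to 0.942) at E45 to 0.450 (0.443 to 0.457) at E55 and 0.337 (0.330 to 0.344) at E65, so that let-7a had the most reads over miR-125b in the E65 library.

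**Figure D4:**
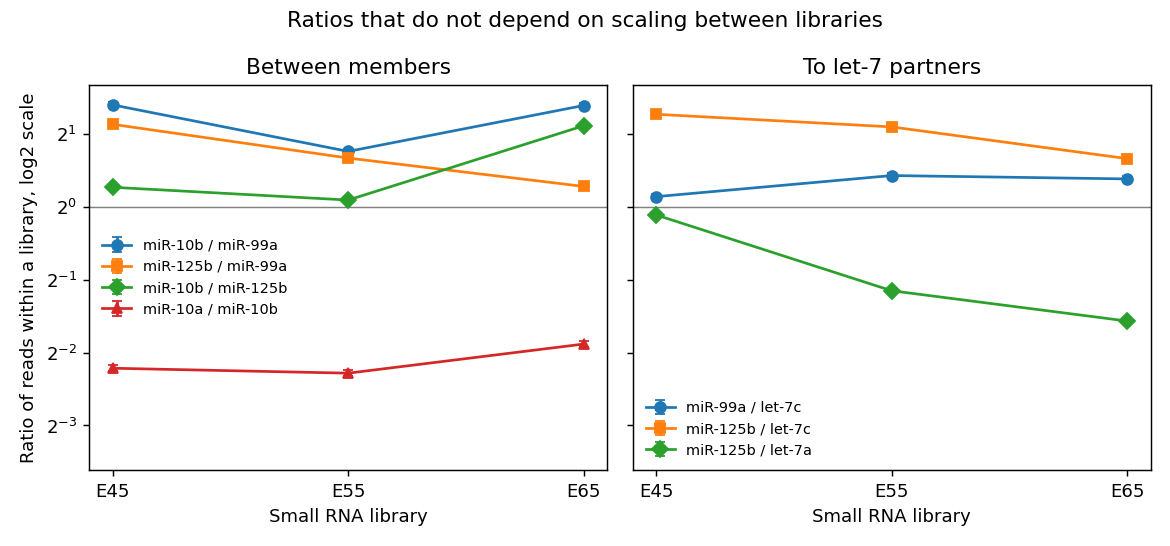
Ratio of reads within a library (log2 axis) between pairs of members (left) and between members and let-7 partners (right), with 95% counting intervals, in the E45, E55 and E65 libraries. miR-125b to let-7a was 0.924, 0.450 and 0.337, while miR-99a to let-7c stayed between 1.10 and 1.34.

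The other let-7 names searched were let-7b, let-7d, let-7f, let-7g, let-7i and miR-98, and 5 of these 6 had a row. All 5 were higher in E55 against E45 and in E65 against E45, with median log2 ratios of 1.09 and 1.92, and 4 of 5 were higher in E65 against E55, or all 5 with median scaling. Of all 649 rows, 63.5% were lower in E55 against E45, 56.4% in E65 against E55 and 67.5% in E65 against E45. One of the 5, let-7d, had 4 reads at E45, and the counting interval of its log2 ratio in E65 against E55 ran from -0.40 to 1.39. miR-10a and miR-10b did not share this order of libraries, as both were lower in E55 against E45 under every scaling. miR-196a and miR-196b, which also lie in HOX clusters, had no named row (0 of 2).

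The rows most like the members over the 3 libraries were sought among 115 sheep-named rows with a mean of at least 10 RPM, by the Euclidean distance of centred log2(RPM + 1) values. With 3 points a profile, closeness is a weak likeness. Nearest to miR-10b were miR-30d (distance 0.25), miR-181a (0.26) and miR-103 (0.27), against a median distance of 1.16, and all 3 were lowest at E55. Nearest to miR-125b were miR-25 (0.14) and miR-376b-5p and miR-376e-5p (0.15 each), which had the same value in every library. Nearest to miR-99a were miR-30c (0.13), miR-26a (0.19) and miR-544-5p (0.19). Among the members, miR-10a and miR-10b were the closest pair (0.30) and miR-10a and miR-125b the farthest (1.07).

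miRNAs known from particular cell types were examined in the same libraries, because the tissue in a skin pool can vary. In the epithelial list 3 of 7 names had a row, with a summed level of 118.5 RPM at E45, 199.0 RPM at E55 and 759.1 RPM at E65. Its most abundant row was miR-200b, and miR-200a did not exceed 3 reads in any of them. In the mesenchymal list 3 of 5 names had a row, summing to 109119, 115421 and 130920 RPM, mostly miR-143. The other two rows did not follow this sum. miR-199a-3p had 32610, 22583 and 27995 RPM, lowest at E55 as miR-10a and miR-10b were, although with median scaling its log2 ratio of E55 against E45 was 0.0876, and its part in the miR-10 values was not tested. miR-152 had 8525, 9710 and 7255 RPM. On the deposited values these 2 of 3 rows were lower in E65 against E45 (median log2 ratio of the list -0.22). In that comparison 67.5% of all 649 rows were lower, with a median log2 ratio of -0.41. Both miR-199a-3p and miR-152 were higher with TMM (0.16 and 0.14) and with median scaling (0.73 and 0.72). In the muscle list 1 of 3 names had a row, miR-133, with 3106 RPM at E45, 6623 RPM at E55 and 2013 RPM at E65. miR-133 was highest in the library where miR-10a and miR-10b were lowest, and its part in those values was not tested. No named row was found for the neuronal (0 of 2), erythroid (0 of 2), endothelial (0 of 1) or liver (0 of 1) lists. The unnamed rows were not searched for these lists, so a miRNA with no named row may still be among them.

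**Figure D5:**
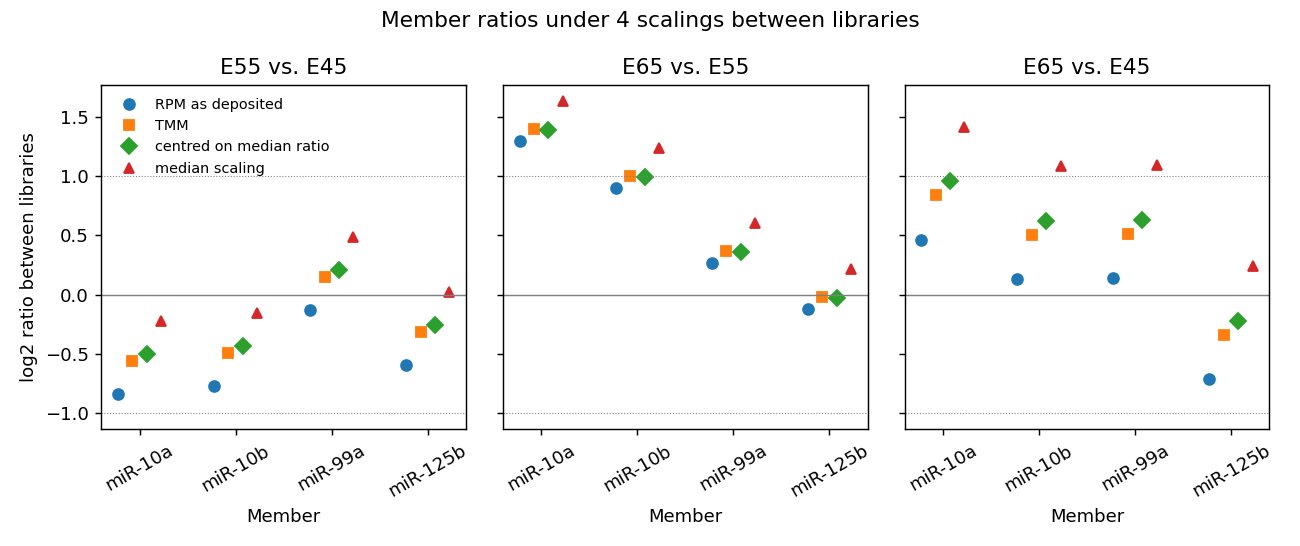
log2 ratio (vertical axis) of each member in the 3 comparisons with RPM as deposited, TMM, centring on the median ratio and median scaling, dotted lines marking 2-fold. miR-10a and miR-10b were below 0 in E55 against E45 and above 0 in E65 against E55 with each scaling shown, whereas miR-99a in E55 against E45 ranged from -0.13 to 0.49 and miR-125b in E65 against E45 from -0.71 to 0.24.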

How the data were processed

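Small RNA libraries were made from total RNA of the 3 pools and, per the labels, sequenced on an Illumina GAIIx and a NextSeq; the instrument of each library is not given in the sources used here, so its part cannot be told apart from that of the stage. The labels name Bowtie for alignment; its version, the genome build and the miRNA caller are not given in the sources used here. The deposited unit is RPM, which the authors call TPM, and each column sums to about 1000000. Low values (222, 251 and 245 under 8 RPM) were whole multiples of 1 read within 0.1 in 100% of cases, which gave the depths. With 1 library per stage, no count test was made. In all, 110 rows share 47 sequences and were counted repeatedly by the authors; no member is among them (0).

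Ratios are log2 of RPM + 1. Poisson, binomial and conditional binomial intervals are exact. TMM factors came from edgeR 4.0.16 in R 4.3.3. Python 3.11.15, numpy 2.4.6, pandas 2.3.3, scipy 1.17.1 and matplotlib 3.10.9 were used, and the steps were tested on simulated data. All member rows are named, with let-7 partners, miR-196 and, for each of the 3 most abundant members, the 3 nearest rows. The members and lists were chosen with earlier results of these data known. The 9 mRNA samples were not used here.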

Additional observations from a re-analysis of the deposited data

How the results depend on the processing

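The log2 ratios depended on the scaling between libraries, more than on the pseudocount. The median log2 ratio of the members in E55 against E45 became -0.0639 with median scaling, -0.40 with TMM and -0.88 with the sheep-named rows as the total. In E65 against E55 it became 0.92 with median scaling and 0.68 with TMM. In E65 against E45 it became 1.09 with median scaling and 0.51 with TMM, and its sign turned, to -0.0629, with the sheep-named rows as the total. The summed level had log2 ratios of -0.60, 0.53 and -0.07 in these comparisons. They became 0.0211, 0.87 and 0.89 with median scaling, -0.32, 0.63 and 0.31 with TMM, and -0.79 and -0.26 in E55 against E45 and E65 against E45 with the sheep-named rows, so the sign turned in E55 against E45 and in E65 against E45. Without miR-10b they were -0.49, 0.26 and -0.22. Without miR-10b in the shares, the miR-10 share became 15.1%, 11.8% and 24.3% at E45, E55 and E65, miR-99a 26.6%, 34.1% and 34.2%, and miR-125b 58.3%, 54.1% and 41.5%, by construction.

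Members past 2-fold became 2 higher in E65 against E55 (12.9% of all rows) and 3 higher in E65 against E45 (28.5%) with median scaling, and 1 lower (miR-10a, -1.03) in E55 against E45 with the sheep-named rows as the total (23.7%), a setting added for these counts after the data were seen. With a log2 threshold of 0.5 on the deposited values, 3 were lower in E55 against E45 (37.0% of all rows), 2 were higher in E65 against E55 (17.3%) and 1 was lower in E65 against E45 (46.7%). At that threshold, median scaling left 0 lower in E55 against E45 (15.3% of all rows) and TMM left 1 (24.3%). In E65 against E45, 3 were higher with median scaling (51.8% of all rows) and with TMM (23.0%). With these scalings 0 were lower there, where 16.9% and 33.9% of all rows were lower.

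Other settings were added after the data were seen. Centred on the median ratio, the medians were -0.35, 0.67 and 0.63. Without the most abundant row in the total they were -0.74 in E55 against E45 and 0.10 in E65 against E45, and with shared sequences counted once 0.0987 in the latter. With the unnamed row added as a member, the medians were -0.59 in E55 against E45 and 0.27 in E65 against E55, and the summed ratios -0.38, 0.20 and -0.18. For single members, the sign turned for miR-99a in E55 against E45 (0.49 with median scaling, 0.15 with TMM, 0.20 centred) and in E65 against E45 (-0.0589 with the sheep-named rows), for miR-10b in E65 against E45 (-0.0669 with those rows), and for miR-125b with median scaling (0.0237, 0.22 and 0.24). Where no cause is given, the cause was not tested.

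No paired analysis was possible because each stage has 1 small RNA library, and no replicate was left out for the same reason. Counting error is small for the members, which have at least 5128 reads each, and the spread between embryos is unknown.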

Other observations

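Some rows without a name carry sequences that belong with the HOX cluster and let-7 partners, and they were looked for by sequence because the named rows were missing. Capitals mark bases 2 to 8.
row chr4_1916: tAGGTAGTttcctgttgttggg
rows chr19_8366 and chr5_2693: tAGGTAGTttcatgttgttggg
row chr18_7980: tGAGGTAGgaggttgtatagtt
The first pair of sequences are those known for miR-196b and miR-196a, which lie in the HOX clusters as miR-10 does, and the last is the one known for let-7e, the neighbour of miR-99b. The names were not checked against a reference sequence.

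Row chr4_1916 had 1590 RPM at E45, 297 RPM at E55 and 169 RPM at E65, a log2 ratio of -2.42 in E55 against E45 and -3.22 in E65 against E45, or -1.80 and -2.27 with median scaling. Rows chr19_8366 and chr5_2693 share 1 sequence and have the same values, 555 RPM at E45, 118 RPM at E55 and 121 RPM at E65, so their reads cannot be assigned to one of the rows. Their log2 ratios were -2.23 and -2.19 in the same comparisons, or -1.61 and -1.23 with median scaling. These rows were highest at E45 and stayed low at E65, whereas miR-10a and miR-10b were lowest at E55 and had 3057 and 11283 RPM at E65. Row chr18_7980 had 1871, 1117 and 979 RPM, with a log2 ratio of -0.93 in E65 against E45, which became 0.0202 with median scaling. Of the 7 named let-7 rows, let-7c was also lower in that comparison on the deposited values (-0.10, but 0.27 with TMM and 0.85 with median scaling) and the other 6 were higher. Row chr18_7980 differs from let-7a at 1 base, T9G counted from the 5′ end of let-7a.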
